A study of Mus musculus with 13 samples.

Results

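The cytosolic ribosomal protein genes were followed as a group in mouse mammary tumors and mammary glands. They were taken by symbol, as every listed gene whose symbol begins with Rps, Rpl or Rplp and a digit, without the Rps6k kinases and without annotated -ps pseudogenes. This rule selected 89 of the 15213 listed genes, 35 with a small subunit symbol (Rps) and 54 with a large subunit symbol (Rpl). It also selects a few genes that are retrocopies, that is intronless copies made from a reverse-transcribed mRNA, and Rps19bp1, which encodes a binding partner of a ribosomal protein. The ribosomal protein genes Rpsa, Fau and Rack1 have other symbols and are described separately.

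The RNA came from 13 pieces of tissue. Of these, 10 were mammary tumors that had grown in 6 MMTV-tTA TetO-Tsg101 females, and 3 were mammary glands of wild-type FVB females. The labels do not give the age of the animals. In the bi-transgenic females the tetracycline-controlled transactivator tTA, driven by the mouse mammary tumor virus promoter in the mammary epithelium, switches on a transgene for TSG101, a subunit of an endosomal sorting complex. Tumors 2 and 3 came from the same female, as did tumors 5 and 6 and tumors 8, 9 and 10. The glands carry neither transgene and are whole tissue, so transgene, tumor state and cell composition cannot be told apart, nor can fewer cells of a type be told from less RNA per cell.

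Depth ranged from 6176269 to 16835397 reads for tumors and from 11672487 to 23889042 reads for glands. The values are normalized cpm (reads scaled to a common library size), that is read counts divided by a library size that the authors had adjusted for composition. The Tsg101 transcript ranged from 49.9 to 101 normalized cpm across tumors and was 45.6, 53.0 and 61.0 in glands 1, 2 and 3. Its log2 fold change was 0.30 (SE 0.20, limma adjusted p of 0.296), and 6 of the 10 tumors lay above every gland. Markers separated the tissues. The 8 listed squamous epithelium genes summed to 6.55, 7.38 and 20.2 in glands 1, 2 and 3, while tumor sums reached from 265 to 2309. Of these genes, 6 were tested and all 6 rose. Genes at 5 or less in most libraries were not tested, so a gene low in every gland had to be higher in most tumors. The filter therefore largely fixed the direction of the tested squamous genes, and their count adds little to the sums. In contrast, 7 of 7 milk genes and both tested adipocyte genes fell in the tumors. Proliferation genes were higher as well (5 of 8), and fibroblast and endothelial genes were lower (4 of 6 in each list). Gland 3 stood apart from glands 1 and 2 in the genes described here, and the counts of members called are given with and without it. The labels name 2 sequencing sites without assigning libraries to them, so a difference of site cannot be told apart from the other differences of gland 3.

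Each ribosome is built from ribosomal RNA and a full set of ribosomal proteins, made in nearly equal numbers, that form a small subunit, which reads the mRNA, and a large subunit, which joins amino acids. Most of these mRNAs are abundant, short and begin with a terminal oligopyrimidine (TOP) tract, a cytidine followed by a run of pyrimidines, through which mTOR signaling and the binding protein LARP1 adjust their translation together. Ribosomal protein mRNAs have also given rise to very many processed pseudogenes in mammals, so that a read from such an mRNA can match several places in the genome. In the mammary gland, ribosome content is known to rise when the epithelium grows and secretes milk.

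The TOP tract is shown at the annotated start of 6 members for which the tumor values are described below. Each window holds 10 bases before the start and 20 from it, read 5′ to 3′ on the coding strand of GRCm38.p6 from RefSeq, and the tract from the start base on is in capitals.
Rps6, chr4:86857348-86857377, minus strand: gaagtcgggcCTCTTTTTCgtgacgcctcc
Rpl28, chr7:4792955-4792984, plus strand: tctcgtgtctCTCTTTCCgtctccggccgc
Rplp2, chr7:141447641-141447670, plus strand: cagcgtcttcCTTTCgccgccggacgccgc
Rpl38, chr11:114668570-114668599, plus strand: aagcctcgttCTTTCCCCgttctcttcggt
Rps27, chr3:90213629-90213658, minus strand: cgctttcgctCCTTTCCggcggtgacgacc
Rps27rt, chr9:114982720-114982749, minus strand: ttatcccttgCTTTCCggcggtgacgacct
Among the members, 67 genes had a start in the table used. A C followed by at least 4 pyrimidines stood at the start of 15 of them (22.4%), against 3.07% of the 11673 listed genes with a start there. The search took the transcribed strand only, and a tract that begins a few bases away from the annotated start was not counted. The 15 members with a tract at a start had a median log2 fold change of 1.13 between tumors and glands, and the 49 tested members without it had a median of 0.95.

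The Rps27 family shows how far members can share sequence. The first 75 coding bases, the length of a read in this study, are given for Rps27, for its retrocopy Rps27rt and for its paralog Rps27l, with the bases that differ from Rps27 in capitals (GENCODE transcripts of GRCm38).
Rps27: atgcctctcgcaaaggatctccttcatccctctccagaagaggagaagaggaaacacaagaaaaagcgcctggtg
Rps27rt: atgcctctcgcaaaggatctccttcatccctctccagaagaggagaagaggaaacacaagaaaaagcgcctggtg
Rps27l: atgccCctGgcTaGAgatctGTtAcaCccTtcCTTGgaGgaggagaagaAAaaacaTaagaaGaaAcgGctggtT
Over the whole coding sequence of 252 bases, Rps27rt was identical to Rps27 (0 bases differed), while Rps27l differed from Rps27 at 60 bases.

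The summed level of the 89 genes varied more than 4-fold between tumors. It was lowest in tumor 4 with 18094 normalized cpm and highest in tumor 9 with 77209, and the median tumor stood at 35252. The level was 13964 in gland 1 and 16756 in gland 2, below every tumor. Gland 3 held 60717, above 8 of the 10 tumors.

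As a share of the column sum, the genes took between 2.29% and 7.32% in the tumors, with a mean of 4.21% ± 1.63 (SD, n = 10). The share was 1.37% in gland 1, 1.52% in gland 2 and 4.27% in gland 3. The tumors therefore averaged 1.76 times the mean of the 3 glands and 2.91 times the mean of glands 1 and 2. The ribosomal RNA precursor Rn45s took 27.4% of the sum in tumor 9, and milk genes took 16.1%, 17.2% and 21.4% in the 3 glands. Without Rn45s and milk genes, the share in tumor 9 went from 5.49% to 7.56% and that in gland 3 from 4.27% to 5.75%. Glands 1 and 2 remained below every tumor on this basis, at 1.63% and 1.84% against 2.33% to 7.56%.

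**Figure D1:**
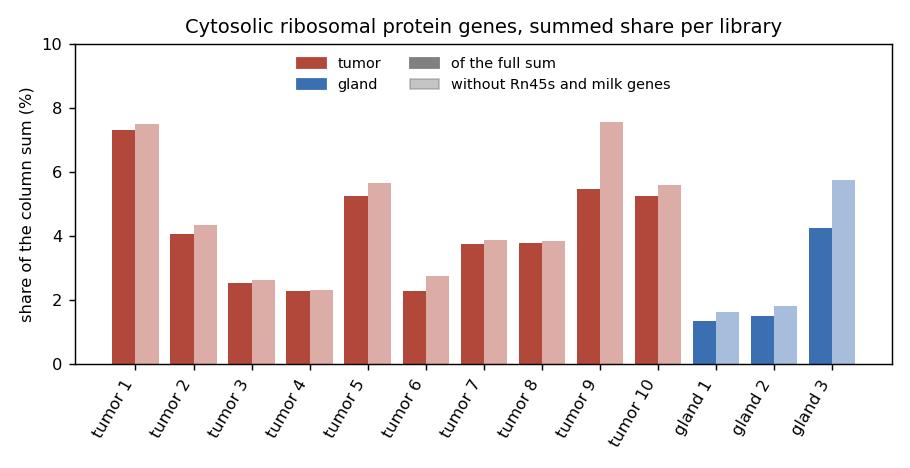
Bars give the summed share of the 89 cytosolic ribosomal protein genes in each library, in percent of the column sum (dark) and in percent of the sum without Rn45s and milk genes (light). Glands 1 and 2 lie at 1.37% and 1.52% and gland 3 at 4.27%, within the tumors' 2.29% to 7.32%.

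Tumors of the same female also differed. Among the tumors of 1 female, tumor 8 held 31443 normalized cpm, tumor 10 held 48079 and tumor 9 held 77209, a ratio of 2.46 between the highest and the lowest. Tumors 5 and 6 stood at 50431 and 24150, a ratio of 2.09, and tumors 2 and 3 at 35670 and 20621.

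The genes of both subunits took part in this spread. Small subunit genes made up 38.5% and 38.1% of the summed level in glands 1 and 2, 52.4% in gland 3 and between 42.1% and 53.4% in the tumors. The lowest small subunit portion of a tumor, in tumor 6, thus lay above glands 1 and 2 and below gland 3.

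The member genes moved together between libraries. Of the 85 members past the filter on low abundance, 44 had their highest tumor value in tumor 9 and 32 in tumor 1. The lowest tumor value fell in tumor 4 for 56 members, in tumor 3 for 18 and in tumor 6 for 9. The ratio of the highest to the lowest tumor had a median of 3.73 over the members, from 1.5 for Rpl28 to 16.1 for Rpl13a, against a median of 2.31 over all genes tested. Gland 3 was the highest gland for 82 of the 85 members, and it was the lowest gland for 2.

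**Figure D2:**
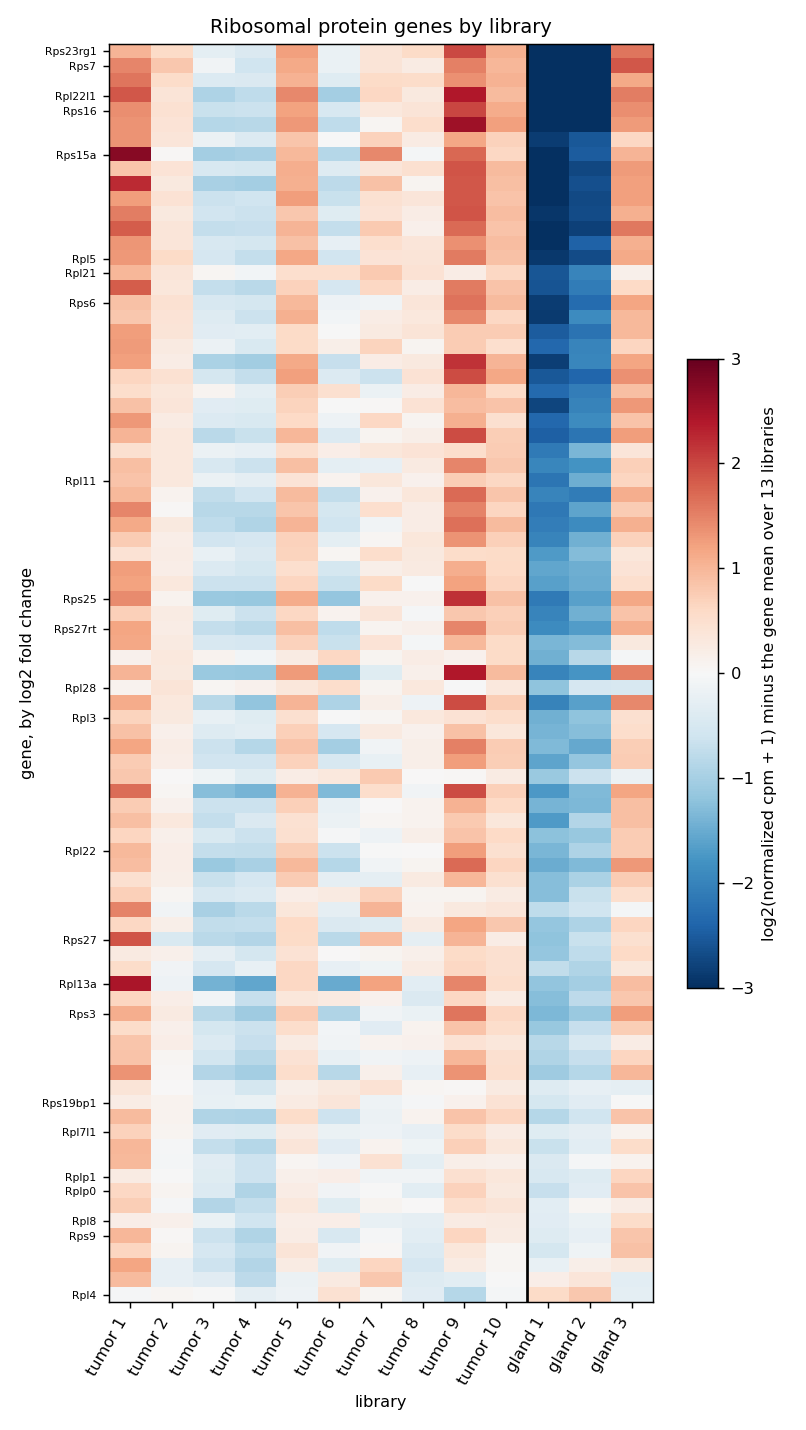
Each row is a member past the filter and each column a library, with the color giving log2(normalized cpm + 1) minus the gene's mean over the 13 libraries. Rows are ordered by log2 fold change with some of the genes described in the text labeled, and the dark blue columns of glands 1 and 2 fade towards the bottom, where Rplp0, Rpl8 and Rpl4 stand.

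In the comparison of all 10 tumors with all 3 glands, 11 of the 85 tested members were significantly higher in the tumors (12.9%). Significantly deregulated means an FDR below 0.05 and a change of more than 2-fold in limma on log2(normalized cpm + 1). Over all 11795 genes tested, 10.2% were higher by the same limits, so the share of the members lay near the background in limma. No member was significantly lower by limma, against 6.99% of all genes, and none was lower at an unadjusted p below 0.05 or in edgeR or DESeq2. By the FDR alone, 15 members were higher (17.6%, against 14.8% of all genes) and 0 were lower (against 13%). At an unadjusted p below 0.05, 40 members were higher (47.1%, against 20% of all genes). By both limits, 1 member was higher in edgeR (against 9.51% of all genes) and 3 in DESeq2 (against 10.4%). With the tumors of each female averaged, 1 member was higher (against 9.47%), and without the female of tumors 8, 9 and 10 there were 2 (against 9.28%). Rpl21 was among the members called in each of these fits.

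The fold changes of the members were shifted as a group. The log2 fold change was above 0 in 79 members and below 0 in 6, and its median was 0.97 against 0.01 over all genes tested. Scaling to epithelial marker genes lowered the median of all genes to -0.66 and that of the members to 0.31, a shift that such a scaling gives to every gene alike. The median of the members was 0.69 in edgeR and in DESeq2 on the recovered reads. The standard error of the members was large, with a median of 0.49 against 0.25 for all genes. For a single member, Rpl28, all 10 tumors lay above all 3 glands (1.18% of the tested members, against 10.7% of all genes).

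The 11 called genes included Rps23rg1, Rpl7a, Rpl11, Rpl18, Rpl19, Rpl21, Rpl23a, Rpl29, Rpl37 and Rpl37a. The calls Rpl7a, Rpl18, Rpl19, Rpl21, Rpl23a, Rpl29 and Rpl37a fall outside the rule for named genes and are named because they were called. Among them, Rpl21 (Entrez 19933; chromosome 5, 146832890 to 146837032) had the smallest adjusted p. This large subunit gene ranged from 47.7 to 102 normalized cpm across tumors, with a median of 69.9, and was 7.62, 12.1 and 55.6 in glands 1, 2 and 3. Of the 10 tumors, 8 lay above gland 3 and all lay above the other glands. The log2 fold change was 1.91 (SE 0.40, limma adjusted p of 0.00245), and the call was lost with epithelial scaling and with the replicate number as a block.

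Rps23rg1, a retrocopy of Rps23, had the largest change of all members in limma, with a log2 fold change of 2.55 (SE 0.87, limma adjusted p of 0.0406). This call was lost without gland 1, at 1.47, without gland 2, at 1.84, and in edgeR and DESeq2, where the log2 fold changes were 0.65 and 0.66 (adjusted p of 0.646 and 0.583), while the value without gland 3 was 4.34. It was also lost with the tumors of each female averaged (2.43, limma adjusted p of 0.119), without the female of tumors 8, 9 and 10 (adjusted p = 0.121), and without any of tumors 1, 2, 5, 7, 8, 9 or 10 alone (adjusted p from 0.0517 to 0.0595). Rps23rg1 ranged from 178 to 950 normalized cpm across tumors and was 12.9, 22.5 and 742 in the glands. Rps7, Rpl22l1 and Rps16 were also among the highest in limma, with log2 fold changes of 2.45, 2.28 and 2.21, and they missed the FDR limit with adjusted p of 0.0535, 0.0865 and 0.0596 (limma). In edgeR their log2 fold changes were 0.35, 0.89 and 0.81, and without gland 3 those of limma were 4.33, 3.92 and 3.76. The tumor values of Rps7 ran from 106 to 462 normalized cpm, glands 1 and 2 held 10.4 and 11.5, and gland 3 held 590, more than any tumor and 54.1 times the mean of the other glands.

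Without gland 3, 58 of the 85 members were significantly higher in the tumors (68.2%), against 12.9% of the 11873 genes tested. No member was significantly lower by limma or by edgeR on the same libraries, against 9.46% of all genes in limma. The median log2 fold change of the members was 1.70, and all 11 genes called with gland 3 were among the 58. All 10 tumors lay above glands 1 and 2 for 64 members (75.3%), against 21.4% of all genes tested. Leaving out another gland had the opposite effect, with 1 member called without gland 1 (1.18%, against 8.43% of all genes) and 2 without gland 2 (2.35%, against 9.3%). The call of the group therefore depended on which gland library was present.

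**Figure D3:**
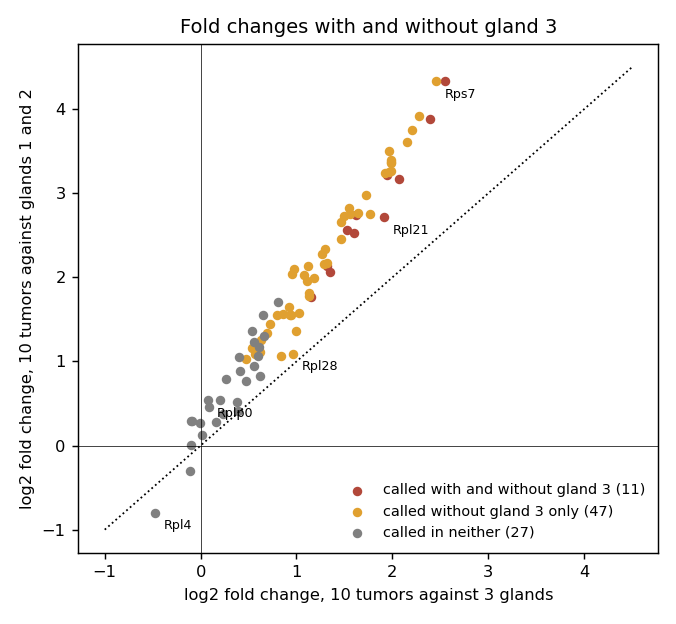
Points are the 85 tested members, with the log2 fold change of tumors over all 3 glands on the x axis and over glands 1 and 2 on the y axis, and the dotted line marks equality. The 11 members called in both fits are red, the 47 called without gland 3 alone are yellow, and 27 in grey were called in neither.

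Rpl28 (Entrez 19943; chromosome 7, 4792965 to 4794547), a large subunit gene, varied least between tumors. Its values ran from 17.5 to 26.2 normalized cpm in the tumors and were 7.06, 12.1 and 12.4 in the glands. The groups did not overlap, and the log2 fold change was 0.96 (SE 0.17, limma adjusted p of 0.00083), just below the 2-fold limit. Every 75-base stretch of the Rpl28 coding sequence is also found in a pseudogene, so its row is uncertain as the level of a single gene. Rps2, Rpl3 and Rpl23 also passed the FDR without passing the fold limit, at log2 fold changes of 1.00, 0.94 and 0.83. The Rps2, Rpl28 and Rpl23 rows share the feature that gland 3 was at most 2.13 times the mean of the other glands. These 4 genes were named after their values were seen, except Rpl3, which is the parent of a listed paralog.

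The members with known roles outside the subunit core followed the general pattern to different extents. Rps6, whose protein is phosphorylated by the S6 kinases downstream of mTOR, ranged from 426 to 1884 normalized cpm across tumors and was 83.8, 123 and 1383 in the glands. The log2 fold change was 1.72 (SE 0.67, limma adjusted p of 0.0687) and 2.98 without gland 3 (adjusted p = 0.000423). Rpl5 and Rpl11 encode proteins that together with 5S ribosomal RNA bind MDM2 and thereby stabilize p53. Rpl11 rose, from 5.65, 9.91 and 46.2 normalized cpm in the glands to between 24.1 and 53.6 in the tumors, with a log2 fold change of 1.31 (SE 0.42, limma adjusted p of 0.0308). Of the 10 tumors, 2 lay above gland 3, and the call was lost without gland 1 (0.72), without gland 2 (1.08), and in edgeR and DESeq2 (0.86 in both), while the log2 fold change without gland 3 was 2.14. With the tumors of each female averaged, the adjusted p was 0.0953 in limma. Rpl5 had a larger fitted change of 1.93 and a larger error of 0.71 (limma adjusted p of 0.0561), and it was at 3.24 without gland 3.

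Rps3, which also encodes a DNA repair factor, was among the most abundant members per coding length. It ranged from 1315 to 8308 normalized cpm in the tumors and was at 1069, 1265 and 6493 in the glands, and the log2 fold change of 0.53 did not pass the test (SE 0.63, limma adjusted p of 0.572). Rpl38 and Rps25, which are known for the translation of particular mRNAs and of viral internal ribosome entry sites, had log2 fold changes of 1.03 and 1.12 with adjusted p of 0.0871 and 0.301 (limma). For both genes, all 10 tumors lay above glands 1 and 2, and 5 and 2 tumors lay above gland 3.

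Fitted changes were small in the ribosomal stalk, the flexible arm of the large subunit that recruits translation factors. Rplp0, the base of the stalk, ranged from 844 to 2514 normalized cpm across tumors and was 971, 1232 and 2845 in the glands, and the fitted log2 fold change was 0.08, with a 95% interval from -0.71 to 0.87. Rplp1 was between 827 and 1796 in the tumors and at 915, 983 and 2006 in the glands, with a log2 fold change of 0.09 and an interval from -0.53 to 0.72. Rplp2 was between 49.2 and 209 in the tumors and at 78.4, 104 and 113 in the glands, with a log2 fold change of -0.10 and an interval from -0.85 to 0.64. The signs of these values turned under several alternatives, and no stalk gene passed the test with or without gland 3.

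Rpl4, Rpl36al and Rps9 were also among the members with the lowest log2 fold changes, at -0.48, -0.10 and -0.09. Rpl4 was 1 of the 2 members with their lowest gland value in gland 3. Rpl4 (Entrez 67891; chromosome 9, 64173387 to 64178562) was at 1514, 1781 and 833 normalized cpm in glands 1, 2 and 3 and between 564 and 1401 in the tumors, with the lowest value in tumor 9. All 10 tumors lay below glands 1 and 2, and 8 lay above gland 3. Its log2 fold change was -0.48 (SE 0.28, limma adjusted p of 0.235) and -0.80 without gland 3 (adjusted p = 0.0441), the reverse of the order of libraries in most members.

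Several retrocopies and paralogs were listed at far higher levels than the gene they derive from. Rps27 ranged from 7.28 to 54.6 normalized cpm across tumors and was 5.61, 8.57 and 20.0 in the glands. Rps27rt, with the identical coding sequence printed above, was between 779 and 3794 in the tumors and at 368, 429 and 2894 in the glands. The ratio of Rps27rt to Rps27 had a median of 114 over the tumors. Rps27l, a paralog with its own sequence and a known p53 target, was between 160 and 1993 in the tumors and at 94.9, 110 and 1074 in the glands, and the fitted log2 fold change was 0.97 (SE 0.80, limma adjusted p of 0.409).

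The same order held in other pairs, named after their values were seen. Rpl37rt was above Rpl37 in all 13 libraries, with a median ratio of 20.4 over the tumors, and Rpl6l was above Rpl6 in all 13, with a median ratio of 2.04. Rps23rg1 exceeded Rps23 in all 13 libraries too, with ratios between 2.79 and 3.17 in the tumors, 1.41 and 1.82 in glands 1 and 2 and 3.43 in gland 3. Rpl32l stayed below Rpl32, at 0.298 of it in the median tumor. Reads from a parent mRNA and from its copy cannot be told apart where their sequences are identical, so these rows are uncertain as levels of single genes.

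The annotated paralogs with their own function differed from their parents to varying extents. Rpl22l1, whose product can replace RPL22 in the ribosome, ranged from 56.9 to 621 normalized cpm across tumors and was 8.82, 11.7 and 339 in the glands. Its ratio to Rpl22 was 0.0342 and 0.0338 in glands 1 and 2, 0.301 in gland 3 and between 0.135 and 0.393 in the tumors. Rpl22 itself had a log2 fold change of 0.66 (SE 0.48, limma adjusted p of 0.344). Rpl36al was above Rpl36a in all 13 libraries, with ratios between 15.1 and 24.0 in the tumors and of 29.7, 29.7 and 34.2 in the glands. No 75-base stretch of either coding sequence is found in that gene alone, so these ratios are uncertain. Rpl7l1, which encodes a protein of ribosome assembly, kept a ratio to Rpl7 between 0.117 and 0.236 in the tumors and of 0.190, 0.151 and 0.181 in the glands. Rpl10l, a testis paralog of Rpl10, was not among the listed genes.

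The level and the change of a member varied with the uniqueness of its sequence. Every window of 75 bases in a coding sequence was searched in all GENCODE transcripts, pseudogenes included. The coding sequences of 28 tested members, among them Rps27, Rps6, Rps16, Rpl11 and Rpl28, had no window that was found in no other gene. In Rpl21, 7.1% of the windows were unique. The 17 members with at least 50% unique windows had a median level of 2136 normalized cpm per kilobase of coding sequence in the tumors, and the 65 members with fewer had a median of 373. The former had a median log2 fold change of 0.38 with none of them called, and the latter had 1.13 with 11 called. Without gland 3, 4 of the 17 and 51 of the 65 were called. Of all genes tested, 10.2% were higher with all libraries and 12.9% without gland 3.

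Across the 82 tested members with a coding sequence, Spearman's rho of the unique portion was 0.45 with the level per kilobase and -0.33 with the log2 fold change. These are descriptions over genes that share the same libraries and that also differ in length and base composition. The paired reads of the study span more than a single window, and how reads with several matches were counted is not stated. The part of shared sequence in the fold changes was not tested.

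**Figure D4:**
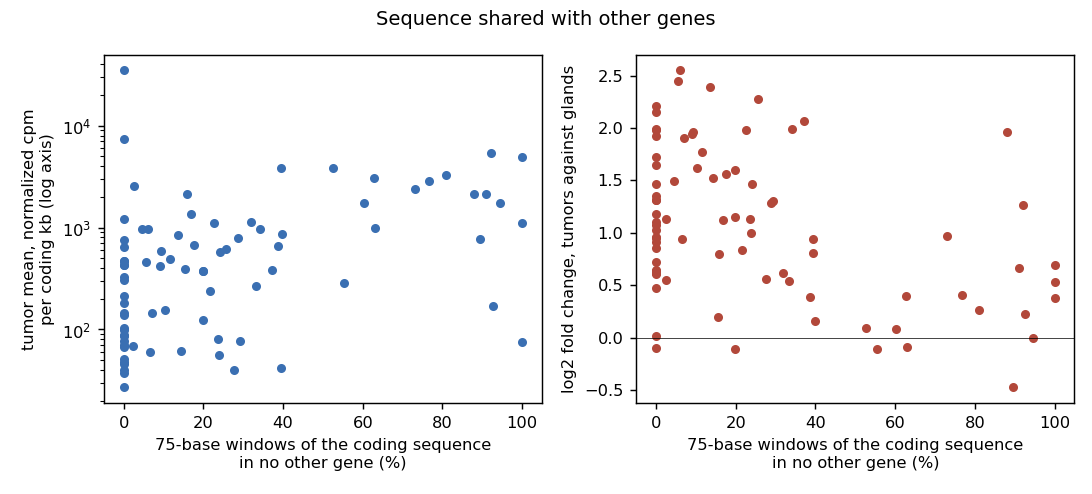
Each point is a tested member, with the percentage of its 75-base coding windows found in no other gene on the x axis, against its mean level in the tumors per kilobase of coding sequence (left, log axis) and its log2 fold change (right). Members at 0% span the whole range of levels on the left and lie between -0.10 and 2.21 on the right, while the 17 members at 50% or more have a median log2 fold change of 0.38 against 1.13 for the rest.

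Short genes other than the members moved between the same libraries. Among tested genes with a coding sequence of up to 300 bases that are no members, the median difference of gland 3 from glands 1 and 2 was 1.21 on the log2 scale (234 genes). It fell with coding length to -0.70 in genes over 3000 bases (1587 genes). The difference of the tumors from glands 1 and 2 likewise went from 0.79 to -0.29, and that of tumor 1 from tumor 4 from 0.96 to -0.58. The members lay above other genes of their length. Between 301 and 450 bases, 31 members had a median difference of 2.42 for gland 3 and 1.56 for the tumors, against 0.96 and 0.67 in 528 other genes.

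Tumors 1, 5, 9 and 10 had the highest summed levels both of the members and of the 1050 other listed genes of up to 450 coding bases. After a smooth trend on coding length was taken out of each library, 25 of 82 members were significantly higher in the tumors (against 10.2% of all genes in that fit), with a median log2 fold change of 0.76. The level of Rn45s was also highest in tumor 9 among the tumors and in gland 3 among the glands, with 384991 and 61962 normalized cpm. Summed milk genes reached 305121 normalized cpm in gland 3, against 165034 and 190125 in glands 1 and 2, and summed adipocyte genes 10883 against 3403 and 3789. Epithelial markers summed to 1244 in gland 3, against 1893 and 2720. The part of coding length, ribosomal RNA and cell composition in the difference of gland 3 was not tested.

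**Figure D5:**
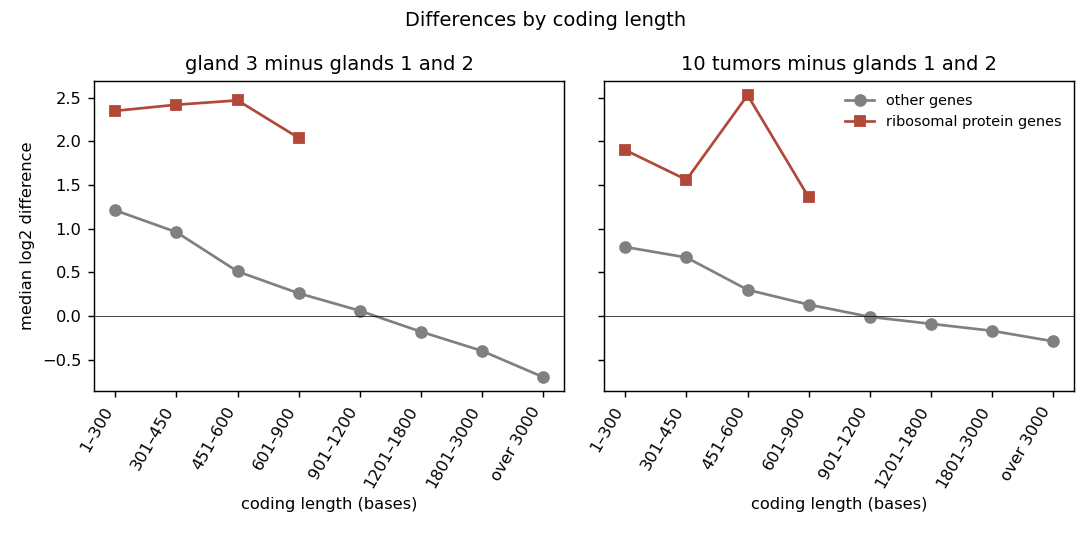
The y axis gives the median log2 difference of gland 3 from the mean of glands 1 and 2 (left) and of the 10 tumors from the mean of glands 1 and 2 (right), and the x axis bins of coding length in bases, for members (red, bins with at least 10 members) and other tested genes (grey). Other genes run from 1.21 to -0.70 on the left and from 0.79 to -0.29 on the right, and the members lie above them in each bin shown.

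Tumor 1 stood out for a few members beyond the general level. Rps15a reached 1284 normalized cpm there, 2.01 times the next tumor, and Rpl13a, which is also known as a translational silencer in the interferon response, reached 5225, 1.96 times the next tumor. Rps27, at 54.6, was 1.83 times the next tumor. In each case the next tumor was tumor 9. The lymphocyte marker list was also highest in tumor 1 among the tumors, with a sum of 140 normalized cpm against 14.4 to 27.3 in the others. It summed to 610, 28 and 588 in glands 1, 2 and 3, and its part in the tumor 1 values was not tested. These genes were picked for their tumor 1 values, so the ratios are descriptions.

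The 4 members at low abundance were taken from the fit without the filter. Rps4l, a relative of Rps4x, was lower in the tumors. It ranged from 0 to 1.89 normalized cpm across tumors and was 3.81, 6.61 and 5.97 in the glands. The corresponding log2 fold change was -1.93 (SE 0.27, limma adjusted p of 8.2e-05). The lowest value rested on 0 reads in tumor 10, which allows up to 3 reads or 0.445 normalized cpm. Its counts were 89, 128 and 49 reads in the glands and at most 25 in a tumor, and these intervals cover counting error only. Rpl39 ranged from 1.57 to 6.52 normalized cpm across tumors and rested on 3, 0 and 37 reads in glands 1, 2 and 3. It was called higher without the filter, with a log2 fold change of 1.35 (SE 0.44, limma adjusted p of 0.0312), although 4 of the 10 tumors lay above gland 3. Rpl3l, known as the heart and skeletal muscle form of Rpl3, was at 8.64 in tumor 4 and at most 2.96 in every other library. The skeletal muscle marker list was highest in that same tumor, with 2104 normalized cpm. Rpl39l, a testis paralog, was highest in gland 3 with 5.97 normalized cpm.

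Rps19bp1, which encodes a nucleolar binding partner of RPS19 rather than a ribosomal protein, ranged from 25.6 to 41.4 normalized cpm across tumors and was 20.6, 23.7 and 29.9 in the glands, and the fitted log2 fold change was 0.38 (SE 0.17, limma adjusted p of 0.122). Gland 3 was 1.35 times the other glands, against a median of 4.74 over the members.

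Ribosomal proteins with symbols outside the pattern showed the same library order. Fau, Rpsa and Rack1 had log2 fold changes of 0.89, 0.62 and 0.45 and did not pass the test (adjusted p of 0.164, 0.276 and 0.484, limma). Gland 3 was 5.36 times the mean of glands 1 and 2 for Fau, 3.97 times for Rpsa and 3.65 times for Rack1.

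The proteins of the mitochondrial ribosome are made from a separate set of nuclear genes. Of 77 tested genes, 1 rose (Mrpl23, log2 fold change 1.63, limma adjusted p of 0.00285), against 10.2% of all genes. None fell beyond the 2-fold limit, against 6.99%, although 2 were lower by the FDR alone, against 13%. Without gland 3, 5 of the 77 were higher and 0 lower, against 12.9% and 9.46% of all genes. The median log2 fold change of the 77 with all libraries was 0.07, which scaling to epithelial markers turned to -0.60 along with all genes. Their summed level was 2720, 3052 and 6216 normalized cpm in glands 1, 2 and 3 and between 2656 and 5711 in the tumors. Gland 3 was thus 2.15 times the mean of the other glands for this set, against 3.95 times for the cytosolic members.

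Among 37 translation initiation factors, none changed significantly by both limits in limma, where 10.2% of all genes were higher and 6.99% lower. By the FDR alone, 2 were higher, against 14.8% of all genes, and the median log2 fold change of the 37 was -0.02. Of 13 listed elongation factors and other mRNAs known to carry a TOP tract, 3 rose and 1 fell (10.2% and 6.99% of all genes), with a median of 0.29. Tpt1, a TOP mRNA for a growth-associated protein, ranged from 409 to 1308 normalized cpm across tumors and was 67.9, 65.2 and 1674 in the glands (log2 fold change 2.11, limma adjusted p of 0.040, and 3.66 without gland 3). Npm1, which encodes the nucleolar chaperone nucleophosmin, and Hnrnpa1, a splicing regulator, rose with log2 fold changes of 1.32 and 1.05 (adjusted p of 0.0281 and 0.00259, limma), and without gland 3 they were at 1.92 and 0.96, so that Hnrnpa1 was then below the 2-fold limit. For Hnrnpa1, gland 3 was the lowest gland with 70.2 normalized cpm, and all 10 tumors lay above all 3 glands. Eef2, the elongation factor that moves the ribosome along the mRNA, fell with a log2 fold change of -1.20 (limma adjusted p of 0.0446). Its values were 3423, 3916 and 1337 normalized cpm in glands 1, 2 and 3, the inverse of the pattern in most members, and between 559 and 2379 in the tumors.

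Of 51 genes for RNA polymerase I and ribosome assembly, none passed both limits in limma, where 10.2% of all genes were higher and 6.99% lower. Without gland 3, 2 of the 51 were higher and 1 was lower, against 12.9% and 9.46% of all genes. With all libraries, 4 were higher by the FDR alone, against 14.8%, and the median log2 fold change of the 51 was 0.04. Their summed level ranged from 2675 to 3912 normalized cpm across tumors and between 2763 and 3372 in the glands, a far narrower range than that of the ribosomal proteins. The host transcripts of small nucleolar RNAs, several of which also carry a TOP tract, had a median log2 fold change of 0.71 over 11 tested genes. One of them rose, Gas5, with a log2 fold change of 1.14 (limma adjusted p of 0.0181), where 10.2% of all genes were higher. Without gland 3, 8 of the 11 were higher, against 12.9% of all genes.

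A list of regulators of ribosomal protein synthesis and translation, which also holds p53 pathway genes, had 21 tested genes. Of these, 1 rose and 3 fell, where 10.2% of all genes tested were higher and 6.99% lower. The gene that rose belongs to the p53 pathway genes of the list. Cdkn1a, the p53 target and cell cycle inhibitor p21, ranged from 37.9 to 190 normalized cpm across tumors and was 16.9, 11.1 and 9.63 in the glands (log2 fold change 2.47, limma adjusted p of 0.000458). Pdcd4, an inhibitor of the initiation factor eIF4A, fell from 403, 419 and 288 normalized cpm in the glands to between 67.5 and 191 in the tumors (log2 fold change -1.70, limma adjusted p of 0.000654). Eef2k, the kinase that inactivates elongation factor 2, and Eif4ebp2, a translational repressor controlled by mTOR, each fell with a log2 fold change of -1.32 (adjusted p of 0.00792 and 0.0253, limma). For Eef2k and Eif4ebp2, gland 3 was the lowest gland, at 31.3 and 34.3 normalized cpm.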

How the data were processed

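Total RNA of 10 mammary tumors and 3 wild-type FVB mammary glands was sequenced with paired-end reads of 75 bases. The authors mapped the reads to mm10 with Rsubread and counted them per gene with featureCounts. The strand setting is not given in the sources used here. The deposited signal values are edgeR's normalized cpm, a count over the library size times a normalization factor. Each library's values (100%) were multiples of the value of 1 read within 0.05 read, from which the counts were recovered.

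Tumors and glands were compared with limma (3.58.1, R 4.3.3; variance trend, no other term) on log2(value + 1), which understates changes of low genes. Genes at 5 or less in the majority of libraries were excluded (3418), leaving 11795. P-values were adjusted after Benjamini-Hochberg over these. Genes past an FDR of 0.05 and 2-fold were considered significantly deregulated. Since several tumors share a female, p-values measure the spread between these samples. The fit was tested on simulated independent counts. These held no outlying gland and no tumors of the same female, so the test does not cover such features. DESeq2 (1.42.0) and edgeR (4.0.16) quasi-likelihood tests of the recovered counts were alternatives, and edgeR called 2074 genes where limma called 2029. Other alternatives were pseudocounts, scalings, filters, omitted libraries, animals and coding length.

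The members and lists were chosen with earlier results of these data known. Named genes were the 5 highest and 5 lowest members, paralogs with their parents, members with known extra roles or no ribosomal protein, ribosomal proteins with other symbols, and up to 3 called genes in each direction per list. Single values of 3 of these genes are not reported here, and the counts and medians include them.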

Additional observations from a re-analysis of the deposited data

Results flagged for a closer look

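Of 53 values checked for a tumor far from the other 9, 7 were flagged, and chance flags about 1 in 20 if values are independent, which genes of the same libraries are not. Tumor 9 was the high sample in 5 of them. There Rps23rg1 reached 950 normalized cpm against 565 in the next tumor, Rps27l 1993 against 909, Rpl32l 1507 against 904, Rps23 328 against 188 and Rps6 1884 against 1200. The parts of tumor 9's ribosomal RNA share of 27.4% and of its depth of 6183457 reads in these values were not tested. Rps27 was far from the other tumors in tumor 1, at 54.6 normalized cpm against 29.8, and Rpl3l in tumor 4, at 8.64 against 2.96, the tumor with the highest sum of skeletal muscle markers.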

How the results depend on the processing

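The number of members called higher in the tumors (11 with all libraries) depended on the libraries and the scaling. It lay between 1 and 58 when single libraries were left out, with 1 without gland 1, 2 without gland 2, 58 without gland 3, 18 without tumor 4 and 7 without tumor 5 or tumor 10. It was 17 with no filter, 48 on plain cpm, 33 on cpm without Rn45s and milk genes, 0 with scaling to epithelial markers (where 10.5%, 15.8%, 12.1% and 5.04% of all genes were higher), 1 in edgeR and 3 in DESeq2 (9.51% and 10.4% of all genes). It was also 1 with the tumors of a female averaged and 2 without the female of tumors 8, 9 and 10 (9.47% and 9.28%). The length trend and the edgeR fit without gland 3, both added after seeing the data, gave 25 and 57 (10.2% and 13.9%). Without single libraries, between 8.43% and 12.9% of all genes were higher. Members past the FDR alone, in either direction, numbered 15 with all libraries and between 2 and 60 without single libraries. They numbered 56, 35, 1, 4, 5, 3, 5, 33 and 59 in the order of the settings from plain cpm on. The 1 with epithelial scaling was lower in the tumors. In either direction, the FDR alone was passed by 17.9% to 34.1% of all genes without single libraries and by 28.1%, 26.7%, 55.1%, 28.2%, 32.7%, 25%, 23.7%, 31.8% and 36% in that order. One member was lower with no filter (Rps4l) and 1 with scaling to epithelial markers, and without single libraries the number stayed between 0 and 0. The cause of these differences was not tested.

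With the replicate number as a replicate block, 0 members were called by either limit. In that fit, 3.07% of all genes were higher by both limits, and 4.61% passed the FDR alone in either direction. The numbers do not pair the samples, since tumors and glands of the same number share only a number and the deviations of same-numbered samples correlated at -0.579, 0.045 and -0.664.

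The median log2 fold change of the members (0.97) went from 0.60 to 1.70 without single libraries, the highest without gland 3, to 0.31 with epithelial scaling and to 2.00 in edgeR without gland 3. Without single libraries the medians of the lists ran from 0.35 to 1.48 for the ribosomal proteins outside the symbol pattern, -0.06 to 0.15 for initiation factors, 0.14 to 0.66 for elongation factors and other TOP mRNAs, -0.03 to 0.09 for polymerase I and assembly genes, 0.56 to 1.18 for snoRNA hosts, -0.23 to -0.07 for regulators and -0.10 to 0.37 for mitochondrial ribosomal proteins. Scaling to epithelial markers gave, in the same order, 0.06, -0.71, -0.41, -0.65, 0.03, -0.86 and -0.60, a shift shared by the median of all genes (-0.66). Scaling to the summed members gave 0.17 for the first list, then -0.61, -0.30 and -0.55, -0.75 for the regulators and -0.50 for the mitochondrial set, with all genes at -0.57. Plain cpm, where all genes were at 0.33, gave 0.31, 0.62 and 0.36 for initiation factors, elongation factors and polymerase I genes and 0.15 for the regulators. In edgeR without gland 3 the values were 1.58, 0.15, 0.69 and, for snoRNA hosts, 1.31. The difference in mean share between tumors and glands (1.82 percentage points) went from 1.32 to 2.77 without single libraries. The list of snoRNA hosts has no coding length, so no value after the length trend could be given.

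Signs turned for named genes that had not been called. Rps9, Rpl36al and Rplp2 were at 0.24, 0.22 and 0.22 on plain cpm and at 0.03, 0.02 and 0.02 without Rn45s and milk genes. Without single libraries they ran from -0.32 to 0.29, -0.40 to 0.30 and -0.26 to 0.0038, turning without gland 3 and for Rps9 also without tumor 4. Rps9 was at 0.06 with the replicate block and 0.40 in edgeR without gland 3 and Rpl36al at 0.34 there. Rplp2 was at 0.01 in DESeq2, 0.02 with the block and 0.12 in edgeR without gland 3. Rplp0 and Rplp1 were at -0.62 and -0.61 with epithelial scaling, -0.52 and -0.51 with scaling to the members, and -0.01 and -0.0022 without the female of tumors 8, 9 and 10. Without single libraries they ran from -0.24 to 0.54 and from -0.11 to 0.45, below 0 without gland 1 or gland 2. Rplp0 was at -0.04 in edgeR and -0.02 in DESeq2, and Rplp1 at -0.18 after the length trend. Epithelial scaling also turned Rpl22 (-0.03), Rps3 (-0.17), Rps19bp1 (-0.30), Rpsa (-0.08) and Rack1 (-0.25), and scaling to the members turned Rps3 (-0.06), Rps19bp1 (-0.20) and Rack1 (-0.15). Of the 10 called members named, 9 lost the call without gland 1, 9 without gland 2, 9 in edgeR, 8 in DESeq2, 9 with the tumors of a female averaged and 10 with the block, and 0 without gland 3. Rps23rg1, Rpl19 and Rpl7a also lost it without any of tumors 1, 2, 5, 7, 8, 9 or 10, and Rpl29 without tumor 5 or 10.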
